A study of Homo sapiens with 9 samples.

Results

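The miR-99/100 and miR-125 families were followed through a miRNA trapping experiment as 8 mature strands: hsa-miR-99a-5p, hsa-miR-99b-5p, hsa-miR-100-5p, hsa-miR-125a-5p, hsa-miR-125b-5p, hsa-miR-99b-3p, hsa-miR-125b-1-3p and hsa-miR-125b-2-3p. They were chosen by name, and they make up 8 of the 2652 miRNA names in the count table, or 9 of its 2883 locus rows, since miR-125b-5p has 2 loci whose counts were summed. The experiment, miTRAP, holds an RNA bait with MS2 loops on a resin, incubates it with cell lysate and recovers the miRNAs that stay on the bait. Lysate came from untreated, wild-type ES-2 cells, an established line of ovarian cancer origin, and small RNA was sequenced from 3 groups of 3 libraries. The input was the lysate before trapping, the MS2 control was trapped on a bait with the loops alone, and the third group was trapped on a bait that carried the 3'UTR of PD-L1 (CD274), a ligand by which tumor cells restrain T cells. The baits were used in different amounts, so bait sequence and bait amount cannot be told apart. Replicates were labelled only by number, and if they did not come from separate cultures the p values measure technical spread.

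miRNAs are cut from hairpin precursors whose 5p and 3p strands pair with each other. One strand, the guide, usually stays in an Argonaute protein, where its seed (bases 2 to 8) pairs with target mRNAs, while the other, the passenger or partner strand, is mostly lost. The miR-99/100 guides are known for repressing MTOR and other growth genes, and the miR-125 guides, relatives of the worm lin-4 miRNA, for roles in differentiation and in blood and tumor cells. Members of both families lie in clusters together with a let-7 miRNA, the family that restrains proliferation programs, and the hairpins of a cluster can come from one primary transcript.

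The guide sequences are shown because the 5 guides fall into 2 seeds, in capitals, and differ mostly outside them. Sequences are those of RefSeq (GRCh38.p14), which held all 8 members.
hsa-miR-100-5p: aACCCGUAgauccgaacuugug
hsa-miR-99a-5p: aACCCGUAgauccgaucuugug
hsa-miR-99b-5p: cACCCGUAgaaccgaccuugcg
hsa-miR-125b-5p: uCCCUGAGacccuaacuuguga
hsa-miR-125a-5p: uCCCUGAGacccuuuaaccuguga

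With positions counted from 1 at the 5′ end, miR-99a-5p and miR-100-5p differed by the single substitution U16A, and miR-99a-5p and miR-99b-5p by A1C, U11A, U16C and U21C. miR-125a-5p and miR-125b-5p shared bases 1 to 13. No other miRNA that passed the filter and had a sequence in that source carried either seed. How reads that fit several near-identical strands were counted was not given in the sources used here, and counts alone cannot reassign them. The partner strands are shown next because those of the miR-125b hairpins behaved differently from each other.
hsa-miR-99b-3p: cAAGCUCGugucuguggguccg
hsa-miR-125b-1-3p: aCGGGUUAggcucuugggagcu
hsa-miR-125b-2-3p: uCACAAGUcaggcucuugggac
hsa-miR-125a-3p: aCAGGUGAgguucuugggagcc

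The miR-125b hairpins gave the same guide but different partner strands. These shared a run of 12 bases (AGGCUCUUGGGA), at positions 8 to 19 of miR-125b-1-3p and 10 to 21 of miR-125b-2-3p, and had unrelated seeds. miR-125a-3p, listed for comparison and not a member, differed from miR-125b-1-3p by G3A, U7G, C11U and U22C. Bases 1 to 7 of miR-125b-1-3p were complementary to bases 1 to 7 of miR-100-5p and miR-99a-5p, which come from other hairpins.

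In the genome (GRCh38.p14) the members lie in 3 clusters. MIR100, MIRLET7A2 and MIR125B1 span chr11:122099769-122152296 on the minus strand. MIR99A, MIRLET7C and MIR125B2 span chr21:16539101-16590311 on the plus strand. MIR99B, MIRLET7E and MIR125A sit within 710 bases, chr19:51692618-51693327, also on the plus strand. Between 50.1% and 53.1% of the miR-125b-5p counts were listed at the chromosome 11 locus in every library, so these counts do not separate its 2 hairpins.

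The libraries held from 672824 to 5983577 miRNA counts, with the input deepest, and 3 counts were worth 0.676 to 4.02 on the counts-per-million (CPM) scale. All 8 members passed the filter on low counts that kept 408 miRNAs. Levels below are CPM scaled by trimmed mean of M values (TMM), where 1 read stands for 1 mature strand and no correction for length applies. A library's counts are relative, so a rise of one miRNA and a fall of the others cannot be told apart, nor can fewer cells of a type and less RNA per cell. The epithelial miR-200 markers were low in the input, with a summed 30.8 to 41.7 CPM of the library total over 5 markers. miR-200c-3p gave most of it, with 114 to 186 counts, and miR-429 was at 0. The same sum was 63.0 to 97.4 CPM in the MS2 control and 270, 69.9 and 41.5 CPM in PD-L1 3'UTR replicates 1, 2 and 3. Over 5 haematopoietic markers the sum was 149 to 200 CPM in the input, 355 to 448 CPM in the MS2 control and 1609, 650 and 607 CPM on the PD-L1 3'UTR. It was higher in every trapped library, as most guides were. In the input miR-142-3p (228 to 432 counts) and miR-142-5p (331 to 572 counts) gave most of it, with miR-144-3p at 0. Replicate 1 stood furthest from the others in each group. PD-L1 3'UTR replicate 1 held 2093 CPM of 3 muscle markers against 113 and 31.7 in its fellow replicates. It also held 183 CPM of the hepatocyte marker miR-122-5p against 0 and 0.81. Every MS2 control library was above the input in these markers too. The muscle sum was 50.5 to 163 CPM in the MS2 control, against at most 3.16 CPM in the input. miR-122-5p stood at 45.8 to 58.8 CPM in the MS2 control, against at most 2.57 CPM in the input. The part of these markers in the results was not tested, and some values without PD-L1 3'UTR replicate 1 are given below.

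In the comparisons with the MS2 control, miR-125b-1-3p had the largest fold change of the 8 members. It rose 46.4-fold from the input to the MS2 control and was 19.3-fold lower on the PD-L1 3'UTR than on the MS2 control. The 5 guides differed by at most 0.53 between the baits and by at most 1.26 between the MS2 control and the input, in absolute log2 fold change. On the PD-L1 3'UTR against the input, miR-99a-5p (1.28) and miR-125b-1-3p (1.26) were nearly level. Without PD-L1 3'UTR replicate 1 their values were 0.99 and 1.15. All guides but miR-100-5p stood higher on the PD-L1 3'UTR than in the input, and miR-100-5p, the most abundant member in every group, was lower in both trapped groups than in the input when libraries were scaled by TMM.

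**Figure D1:**
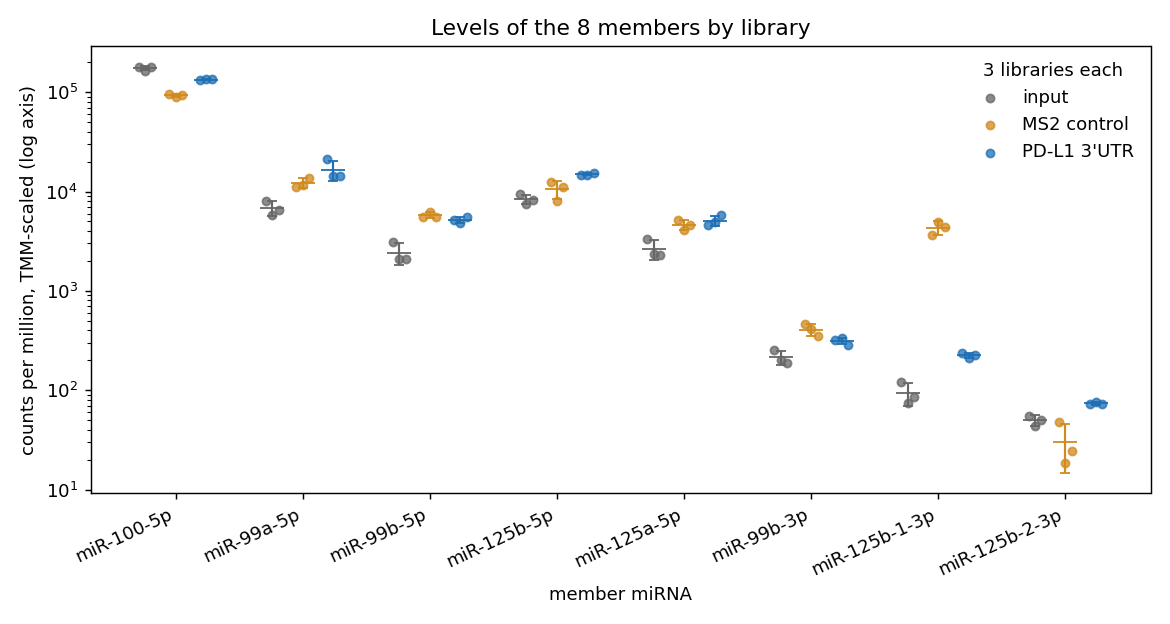
Level of each member in each library as TMM-scaled CPM on a log axis, with points for the 3 libraries of a group and a bar and whiskers for the mean ± SD. miR-125b-1-3p stands at 3619 to 4949 CPM in the MS2 control, far above its 74.9 to 120 CPM in the input and 209 to 234 CPM on the PD-L1 3'UTR.

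Together the 8 members took 14.8% ± 0.539 (SD, n = 3) of the counts in the input, 15.4% ± 1.38 in the MS2 control and 19.9% ± 0.475 in the PD-L1 3'UTR group. The 3 guides of the miR-99/100 seed accounted for most of this, with 13.9% ± 0.437, 13.1% ± 1.01 and 17.5% ± 0.438, respectively. Those of the miR-125 seed took 0.835% ± 0.102, 1.79% ± 0.418 and 2.25% ± 0.105. The 3 partner strands held 0.0270%, 0.557% and 0.0686% in the same order, and miR-125b-1-3p alone made up 0.505% in the MS2 control.

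In the order of mean CPM, miR-100-5p came first in all 3 groups, and ranked 2, 3 and 2 among all miRNAs of the input, MS2 control and PD-L1 3'UTR groups. Next in the input were miR-125b-5p and miR-99a-5p, whose libraries overlapped, then miR-125a-5p and miR-99b-5p, which overlapped too. With the PD-L1 3'UTR both of these pairs of neighbors again overlapped. In the MS2 control, miR-125b-1-3p rose from the last places to the level of miR-125a-5p, from rank 154 in the input to rank 29, and the libraries of these 2 strands overlapped. It fell back to rank 121 with the PD-L1 3'UTR.

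What the 3'UTR held over and above its MS2 loops is the question of the first comparison, PD-L1 3'UTR against MS2 control. In edgeR's quasi-likelihood test with Benjamini-Hochberg adjustment over 408 miRNAs, 3 of the 8 members rose, against 31.4% of all miRNAs tested. One member, miR-125b-1-3p, fell, against 28.7% of all. The median log2 fold change of the members was 0.30, and that of all miRNAs was 0.02. The members that rose were near the background share. miR-125b-1-3p ranked 14 from the lowest of the 408 fold changes.

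Against the input, 6 members rose with the PD-L1 3'UTR, where 34.1% of all miRNAs did, and 1 fell, where 32.4% of all did. Their median log2 fold change was 0.89, and that of all was 0.04. In the MS2 control, 5 members rose over the input against 32.8% of all miRNAs, and 1 fell against 37% of all, with medians of 0.82 and 0.02. The 3 comparisons share libraries pairwise, so their values are set side by side and not related to each other. The scaling mattered for both comparisons with the input. When libraries were scaled by their totals, the median of all miRNAs rose to 0.60 for the PD-L1 3'UTR and to 0.65 for the MS2 control. Of all calls, 68.3% and 65.7% were then higher, in place of 51.3% and 47.0%.

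**Figure D2:**
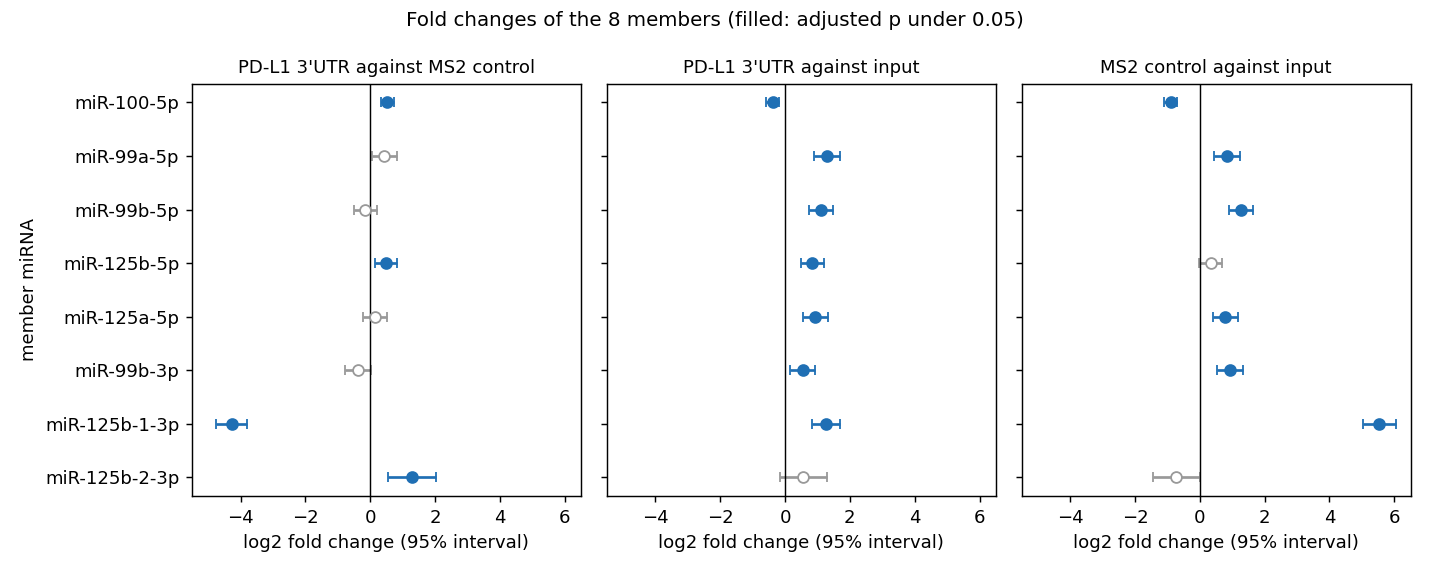
Log2 fold change of each member in the 3 comparisons, with 95% intervals, where filled points passed an adjusted p of 0.05. miR-125b-1-3p lies at -4.27, 1.26 and 5.54, while the guides lie between -0.90 and 1.28.

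miR-100-5p is the guide of the chromosome 11 cluster and differs from miR-99a-5p by 1 base. Its levels were 180500, 165200 and 177400 CPM in input replicates 1, 2 and 3, 96680, 89560 and 93500 CPM in the MS2 control, and 131200, 135100 and 136400 CPM on the PD-L1 3'UTR. The 3 groups did not overlap, with the PD-L1 3'UTR between the others, and replicates agreed closely. It was higher with the PD-L1 3'UTR than with the MS2 control by 0.53 ± 0.09 (SE, adjusted p of 5e-04) on the log2 scale, or 1.44-fold. Leaving out 1 library at a time gave 0.47 to 0.55. Its fall from the input to the MS2 control was -0.90 ± 0.09 (adjusted p of 1.16e-05), and -0.27 (adjusted p of 0.0263) with library totals.

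Against the input, miR-100-5p changed by -0.38 ± 0.09 with the PD-L1 3'UTR (adjusted p of 0.00396) under TMM scaling, but by 0.19 (adjusted p of 0.0999) with library totals, where the direction flipped. As a share of all counts it was 13.2% ± 0.319 (SD, n = 3) of the input and 15.1% ± 0.186 of the PD-L1 3'UTR libraries. Under both scalings its value stood below the median of all miRNAs, 0.04 and 0.60. Its direction against the MS2 control did not depend on the scaling, with 0.46 by library totals.

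miR-99a-5p, the guide of the chromosome 21 cluster, stood at 8047, 5791 and 6593 CPM in the input. It had 11220, 11630 and 13770 CPM in the MS2 control and 21030, 14350 and 14410 CPM on the PD-L1 3'UTR. Each trapped library exceeded each input library. It rose over the input by 1.28 ± 0.18 with the PD-L1 3'UTR (adjusted p of 0.000148), and by 0.99 without PD-L1 3'UTR replicate 1. In the MS2 control it rose by 0.84 ± 0.18 (adjusted p of 0.00189). Its difference between the baits, 0.44 ± 0.18, missed the threshold (adjusted p of 0.0546, 95% interval 0.04 to 0.84), and over the alternatives the adjusted p ranged from 0.0178 to 0.255. Without PD-L1 3'UTR replicate 1, the library with the highest value, the difference was 0.19.

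miR-99b-5p, from the compact chromosome 19 cluster, had 3108, 2080 and 2096 CPM in the input. The MS2 control held 5519, 6294 and 5593 CPM and the PD-L1 3'UTR group 5206, 4876 and 5603 CPM. The trapped groups overlapped each other and lay above the input. It rose over the input by 1.11 ± 0.17 with the PD-L1 3'UTR (adjusted p of 0.00021) and by 1.26 ± 0.17 in the MS2 control (adjusted p of 7.65e-05), while the baits differed by -0.15 ± 0.16 (adjusted p of 0.451, 95% interval -0.51 to 0.21). That interval leaves room for a difference in either direction.

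The 3 guides of the shared miR-99/100 seed therefore did not keep their proportions. There were 25.8 counts of miR-100-5p per count of miR-99a-5p in the input, 7.67 in the MS2 control and 8.22 with the PD-L1 3'UTR, as geometric means of 3 libraries. For miR-100-5p per miR-99b-5p the ratios were 73.1, 16.1 and 25.7. Ratios of counts within a library do not depend on the scaling, and 13 such ratios were tested over the 3 groups by an exact permutation test with Benjamini-Hochberg adjustment. Both differed between groups, with an adjusted p of 0.0348 and of 0.00663 by exact permutation. The former was lost without PD-L1 3'UTR replicate 2 or 3 (adjusted p of 0.0511 for each, exact permutation), while the latter held with any 1 library left out. An adjusted p of 0.00663 belongs to the smallest p that 3 groups of 3 allow, 0.00357. For a single pair of groups the smallest exact p is 0.1, so pairs are given as values only.

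The miR-125 guides are regulators of differentiation that share a seed across all 3 clusters. miR-125b-5p had 9340, 7572 and 8171 CPM in the input, 12610, 8119 and 11090 CPM in the MS2 control, and 14830, 14570 and 15370 CPM on the PD-L1 3'UTR. The PD-L1 3'UTR libraries lay above all others and were tightly grouped, whereas the MS2 control overlapped the input. It rose over the input by 0.84 ± 0.16 with the PD-L1 3'UTR (adjusted p of 0.000979). Against the MS2 control it rose by 0.49 ± 0.16 (adjusted p of 0.0198), with 0.33 to 0.64 and adjusted p from 0.00614 to 0.0856 over the alternatives. The call was lost when MS2 control replicate 2 (0.33) or replicate 3 of the PD-L1 3'UTR group (0.47) was left out, with library totals (0.42), with a minimum mean of 10 CPM (0.38) and with loci kept separate (0.35). The MS2 control differed from the input by 0.34 ± 0.16 (adjusted p of 0.0753), by 0.50 (adjusted p of 0.00718) without MS2 control replicate 2 and by 0.98 (adjusted p of 0.000524) with library totals, and the adjusted p ranged from 0.000524 to 0.841 over the alternatives.

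miR-125a-5p measured 3356, 2346 and 2282 CPM in the input, 5159, 4094 and 4570 CPM in the MS2 control, and 4578, 4982 and 5755 CPM on the PD-L1 3'UTR. Its trapped groups overlapped each other and lay above the input. It rose over the input by 0.94 ± 0.17 with the PD-L1 3'UTR (adjusted p of 0.000802) and by 0.79 ± 0.17 in the MS2 control (adjusted p of 0.00203). Between the baits the difference was 0.15 ± 0.17 (adjusted p of 0.479, 95% interval -0.23 to 0.53). miR-125b-5p outnumbered miR-125a-5p by 3.18-fold in the input, 2.27-fold in the MS2 control and 2.94-fold with the PD-L1 3'UTR (adjusted p of 0.0361, exact permutation). This call was lost without replicate 2 of any group, or without replicate 3 of the input or of the PD-L1 3'UTR (adjusted p of 0.0511 to 0.108, exact permutation).

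The partner strands of the miR-125b hairpins stood apart from their guide. miR-125b-1-3p, from chromosome 11, had 120, 74.9 and 85.2 CPM in the input, 3619, 4949 and 4427 CPM in the MS2 control, and 234, 209 and 228 CPM on the PD-L1 3'UTR. No 2 groups overlapped, and the MS2 control libraries were more than an order of magnitude above the rest. These levels rested on 222 to 456 counts in the input libraries, 5598 to 12482 in the MS2 control and 156 to 331 with the PD-L1 3'UTR. The rise from the input to the MS2 control was 5.54 ± 0.23 on the log2 scale (adjusted p of 2.85e-08), the eighth highest of the 408 miRNAs. On the PD-L1 3'UTR it was -4.27 ± 0.21 against the MS2 control (adjusted p of 4.62e-08) and 1.26 ± 0.19 against the input (adjusted p of 0.000241).

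These calls did not depend on any 1 library. Leaving out each in turn gave 5.40 to 5.76 for the MS2 control against the input, -4.39 to -4.17 for the PD-L1 3'UTR against the MS2 control, and 1.13 to 1.48 for the PD-L1 3'UTR against the input. Library totals gave 6.16, -4.32 and 1.84.

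miR-125b-2-3p, from chromosome 21, was the least abundant member, with 55.5, 43.5 and 50.0 CPM in the input, 47.8, 18.6 and 24.2 CPM in the MS2 control, and 72.2, 76.5 and 72.6 CPM on the PD-L1 3'UTR. The PD-L1 3'UTR libraries were the highest, and MS2 control replicate 1 lay among the input libraries. These levels rested on 32 to 74 counts in the MS2 control and 57 to 102 with the PD-L1 3'UTR. It rose with the PD-L1 3'UTR over the MS2 control by 1.29 ± 0.33 (adjusted p of 0.0062), and by 1.03 to 1.79 with 1 library left out. Against the input it changed by 0.57 ± 0.32 with the PD-L1 3'UTR (adjusted p of 0.14, 95% interval -0.14 to 1.28), and by 1.14 (adjusted p of 0.0123) with library totals. In the MS2 control it changed by -0.73 ± 0.32 (adjusted p of 0.0683), which became -1.22 (adjusted p of 0.00205) without MS2 control replicate 1.

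Strand ratios within a library showed the contrast most directly. There were 91.0 counts of miR-125b-5p per count of miR-125b-1-3p in the input and 66.6 with the PD-L1 3'UTR, but 2.43 in the MS2 control. Per count of miR-125b-2-3p there were 168, 201 and 371 counts of the guide in the input, PD-L1 3'UTR and MS2 control groups. The partner strands thus moved in opposite directions against their common guide. miR-125b-1-3p outnumbered miR-125b-2-3p by 1.85-fold in the input, 3.02-fold with the PD-L1 3'UTR and 153-fold in the MS2 control, where single libraries ranged from 75.1-fold to 263-fold. The groups did not overlap in any of these 3 ratios, and each had an adjusted p of 0.00663 by the exact permutation test over 3 groups. With any 1 library left out, those with miR-125b-1-3p held, whereas the ratio of miR-125b-5p to miR-125b-2-3p missed the threshold if any input library, or replicate 2 or 3 of the PD-L1 3'UTR group, was dropped (adjusted p of 0.0511 to 0.0567, exact permutation).

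**Figure D3:**
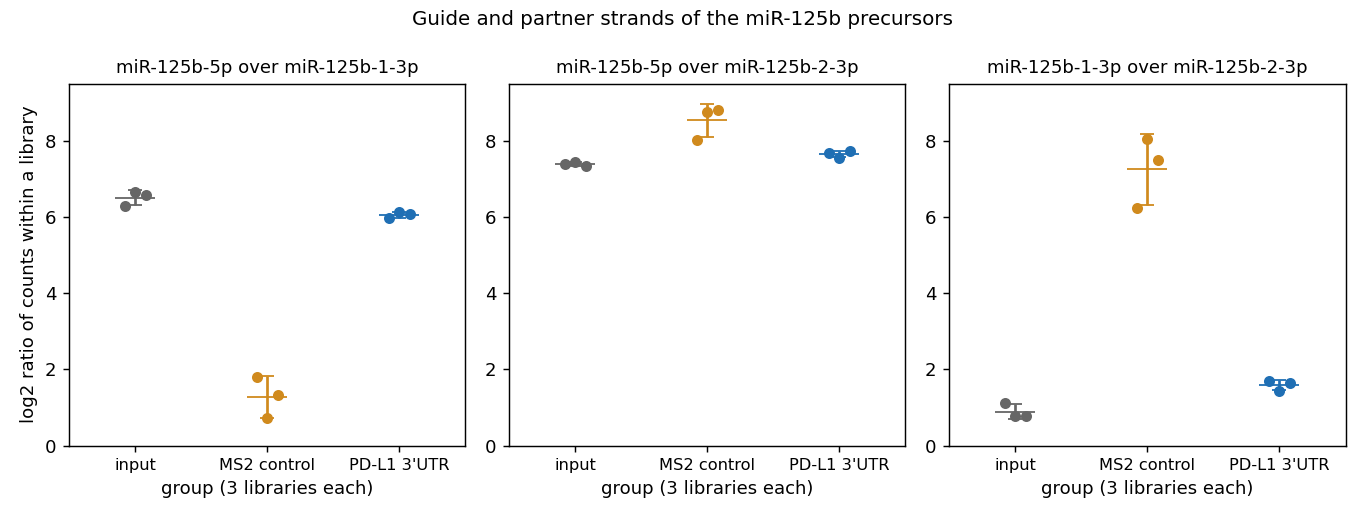
Log2 ratios of counts within each library for the miR-125b guide and its partner strands, with points for the 3 libraries of a group and the mean ± SD. The MS2 control lies at 0.71 to 1.80 for the guide over miR-125b-1-3p, against 6.28 to 6.66 in the input, and at 6.23 to 8.04 for miR-125b-1-3p over miR-125b-2-3p, against 0.77 to 1.11 in the input.

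miR-99b-3p is the partner of miR-99b-5p. It had 253, 201 and 188 CPM in the input, 460, 415 and 348 CPM in the MS2 control, and 319, 334 and 287 CPM on the PD-L1 3'UTR. Both trapped groups lay above the input. It rose over the input by 0.93 ± 0.17 in the MS2 control (adjusted p of 0.000793) and by 0.55 ± 0.17 with the PD-L1 3'UTR (adjusted p of 0.0171), a call lost without PD-L1 3'UTR replicate 1 or 2 or input replicate 2 or 3 (0.44 to 0.51, adjusted p of 0.054 to 0.0706), with only the groups compared (0.42, adjusted p of 0.0773) and with no filter (0.29, adjusted p of 0.479). Between the baits it differed by -0.38 ± 0.17 (adjusted p of 0.0826), and by -0.54 (adjusted p of 0.0238) without MS2 control replicate 3. Guide to partner ratios were 11.2, 14.3 and 16.7 in the input, MS2 control and PD-L1 3'UTR groups (adjusted p of 0.0422, exact permutation), a narrower range than for miR-125b-1. The call was lost if any input library, replicate 2 of the MS2 control, or replicate 1 or 3 of the PD-L1 3'UTR group was dropped (adjusted p of 0.0633 to 0.116, exact permutation).

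The other strands of these hairpins were read by name as a check on the partner strands. miR-99a-3p, which shares the seed of miR-99b-3p, stayed below the filter with 30 counts in all 9 libraries. miR-100-3p, the partner of the most abundant guide, had a mean of 2.59 CPM in the input, 31.5 in the MS2 control and 91.2 with the PD-L1 3'UTR. It rose in all 3 comparisons, by 3.55 ± 0.37 in the MS2 control over the input (adjusted p of 1.32e-05), 5.09 ± 0.38 with the PD-L1 3'UTR over the input (adjusted p of 1.17e-06) and 1.54 ± 0.32 over the MS2 control (adjusted p of 0.00171). Its input level rested on only 4 to 15 counts per library, and it passed the filter through the trapped groups. Its rises over the input follow in part from that. miR-125a-3p had 20.4, 68.0 and 29.9 CPM, so that it was highest in the MS2 control, as miR-125b-1-3p was. It rose by 1.73 ± 0.25 from the input to the MS2 control (adjusted p of 0.00014) and fell by 1.17 ± 0.25 from there to the PD-L1 3'UTR (adjusted p of 0.00237).

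The let-7 miRNAs of the same clusters are a reference for how neighbors on a transcript behaved. All 6 let-7 strands passed the filter. Between the PD-L1 3'UTR and the MS2 control 0 rose and 3 fell, where 31.4% of all miRNAs rose and 28.7% fell. Their median log2 fold change was -1.38, against the medians of 0.30 for the members and 0.02 for all miRNAs. Those that fell were the guides let-7a-5p (-3.23 ± 0.22, adjusted p of 5.11e-07), let-7c-5p (-2.91 ± 0.32, adjusted p of 1.98e-05) and let-7e-5p (-2.88 ± 0.19, adjusted p of 3.43e-07). In the MS2 control 5 of the 6 rose over the input and 0 fell, where 32.8% of all miRNAs rose and 37% fell. With the PD-L1 3'UTR the partner strands let-7a-2-3p and let-7c-3p rose over the input, and the 3 guides fell. Of all miRNAs, 34.1% rose and 32.4% fell in that comparison. let-7c-3p had only 2 to 10 counts per input library and passed the filter through the trapped groups, where it was higher. Its rises over the input, here and in the MS2 control, follow in part from that filter. The falls of let-7c-5p (-0.98) and let-7e-5p (-1.01) from the input were -0.40 (adjusted p of 0.27) and -0.44 (adjusted p of 0.0502) with library totals.

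**Figure D4:**
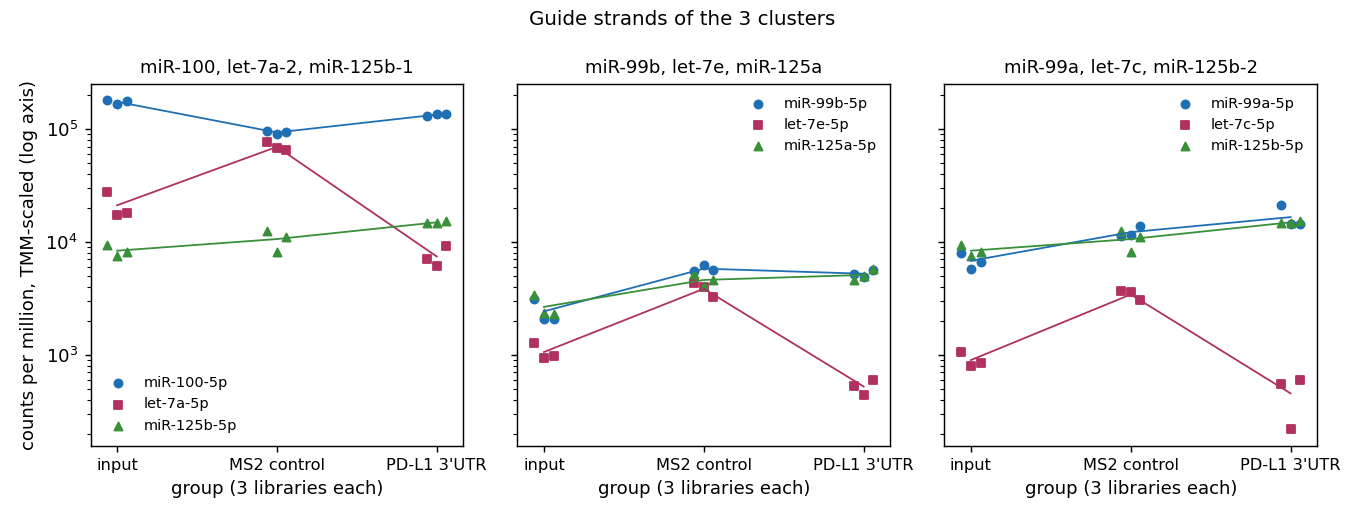
TMM-scaled CPM (log axis) of the guides of each cluster by group, with points for libraries and lines through group means, where let-7a-5p and miR-125b-5p also come from other loci. Each let-7 guide is highest in the MS2 control and lowest with the PD-L1 3'UTR, for example 69590 and 7434 CPM for let-7a-5p, while the member guides of each cluster stay within a narrower range.

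Cluster partners of the members thus separated under trapping. There were 2.49 counts of miR-125a-5p per let-7e-5p in the input, 1.2 in the MS2 control and 9.76 with the PD-L1 3'UTR. For miR-99a-5p per let-7c-5p the ratios were 7.57, 3.56 and 39.1, and for miR-100-5p per let-7a-5p 8.46, 1.34 and 18.3. In each of the 3 the groups did not overlap (adjusted p of 0.00663, exact permutation), and the calls held with any 1 library left out. let-7a-5p counts were summed over 3 loci, of which only 1 lies in the cluster.

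Within the clusters the member guides stayed closer to each other. miR-99b-5p per miR-125a-5p gave 0.91, 1.26 and 1.03 in the input, MS2 control and PD-L1 3'UTR groups (adjusted p of 0.0426, exact permutation), and the call was lost in 7 of 9 cases with 1 library left out (adjusted p of 0.0813 to 0.104), holding without replicate 1 of either trapped group. miR-99a-5p per miR-125b-5p gave 0.81, 1.17 and 1.09 and was the 1 ratio of the 13 that missed the threshold (adjusted p of 0.107, exact permutation). Its single PD-L1 3'UTR libraries ranged from 0.937 to 1.42, the latter in replicate 1. The chromosome 11 pair was the exception, with 20.9 counts of miR-100-5p per miR-125b-5p in the input, against 8.93 and 9.0 after trapping on the MS2 control and the PD-L1 3'UTR (adjusted p of 0.0422, exact permutation). Here the trapped groups overlapped and lay below the input. The call was lost if any input library, or replicate 2 or 3 of the PD-L1 3'UTR group, was dropped (adjusted p of 0.0511 to 0.0567, exact permutation).

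The miR-10 guides are distant relatives of the miR-99/100 guides, with miR-10a-5p sharing the 11 bases GUAGAUCCGAA with miR-100-5p at positions shifted by 1. Both fell from the input, as miR-100-5p did under TMM scaling. miR-10a-5p changed by -2.82 ± 0.11 in the MS2 control (adjusted p of 2.85e-08) and by -1.88 ± 0.11 with the PD-L1 3'UTR (adjusted p of 2.19e-07). miR-10b-5p changed by -0.79 ± 0.12 (adjusted p of 0.000142) and by -1.26 ± 0.12 (adjusted p of 6.6e-06), the former being -0.17 (adjusted p of 0.177) with library totals. Between the baits the pair split, with miR-10a-5p higher with the PD-L1 3'UTR by 0.94 ± 0.11 (adjusted p of 2.33e-05) and miR-10b-5p lower by -0.46 ± 0.11 (adjusted p of 0.005).

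The sequence of the PD-L1 3'UTR was searched for matches to the members' seeds. The 3'UTR of the CD274 transcript used lies in exon 7 at chr9:5467863-5470554 (GRCh37, plus strand) and is 2692 bases long. The primers that set the ends of the bait were not analysed here. Matches were the complement of bases 2 to 7 (6mer), the same followed by A (7mer-A1), that of bases 2 to 8 (7mer-m8) and both together (8mer), on the sense strand. For comparison, the share of 2548 annotated 3'UTRs within 20% of this length, this one among them, that held each match was counted. The guides of the 2 families had no match of 7 or 8 bases. The miR-99/100 seed had a single 6mer (ACGGGT), at position 321 of the 3'UTR, which 9.0% of the compared 3'UTRs held. For the miR-125 seed there was none of any type, where 53.5% held its 6mer (TCAGGG).

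The miR-125b partner strands did have matches. miR-125b-1-3p had a 7mer-A1 (AACCCGA) at position 1180, found in 2.0% of the compared 3'UTRs, and its 6mer is the one within that site. miR-125b-2-3p had 6mers (CTTGTG) at positions 2339 and 2474, found in 56.3%. miR-99b-3p had no match, against 49.1% with its 6mer (GAGCTT). The strand with the longest match, miR-125b-1-3p, had the largest fall of the members on this bait against the MS2 control (-4.27). It was higher on this bait than in the input (1.26). The part of the matches in these values was not tested, and the sites are shown for reference.
miR-99/100 6mer site: ctaggaagACGGGTtgagaatc
miR-125b-1-3p 7mer-A1 site: gaggggaaAACCCGAgcagtgtt
First miR-125b-2-3p 6mer site: cagagctcCTTGTGttatctgt
Next miR-125b-2-3p 6mer site: aactcctcCTTGTGgtgttgga

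The capitals mark the match. A match of letters is a description of this sequence only.

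Among the other miRNAs that passed the filter, the patterns most like those of the members were found by the Euclidean distance of centered log2 CPM over the 9 libraries. Nearest to miR-100-5p were miR-3615 (0.41), miR-152-3p (0.47) and miR-7976 (0.59), where the median distance of all miRNAs was 3.2. miR-125b-5p had as neighbors miR-744-5p (0.57), miR-142-3p (0.64) and miR-3152-5p (0.69), against a median of 3.46. For miR-125b-1-3p, which was added to this search after its values were seen, the closest were miR-3691-5p (2.06), miR-30b-3p (2.1) and miR-25-5p (2.33), against a median of 7.75. miR-25-5p, for example, had a mean of 16.6 CPM in the input, 304 in the MS2 control and 27.5 with the PD-L1 3'UTR. Among the members themselves, miR-99b-5p and miR-125a-5p of the chromosome 19 cluster were the closest pair (0.72). The seed partners miR-125a-5p and miR-125b-5p were nearly as close (0.74), whereas miR-125b-1-3p was at 5.93 or more from every other member.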

How the data were processed

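Small RNA of ES-2 cells was analyzed in 9 libraries, 3 each of input, MS2 control miTRAP and PD-L1 3'UTR miTRAP, grouped by their titles. The authors deposited unnormalized read counts for each locus of a mature miRNA. Per the labels, reads were trimmed with cutadapt 1.18, aligned with Bowtie2 2.2.6 to hg38 and counted with featureCounts 1.6.3. The study's methods name miRBase mature miRNAs and more than 1 genome build. How reads aligning to several loci were counted was not stated.

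Loci of one name were summed. miRNAs were kept by filterByExpr, leaving 408 with at least 99.68% of the counts of each library. All 9 libraries entered 1 fit of the 3 groups by edgeR 4.0.16 (TMM, glmQLFit, glmQLFTest, two-sided) in R 4.3.3, with Benjamini-Hochberg adjustment and a threshold of 0.05, at a common biological coefficient of variation of 31.1%. The SE is the log2 fold change divided by the square root of the F statistic. Ratios used log2(count + 0.5) and all 1680 arrangements of 3 groups of 3 (scipy 1.17.1). The edgeR fit was checked on simulated counts with rises and falls drawn at equal odds, and the ratio test on simulated normal values. These checks do not bear on the choice of scaling. All replicate pairs differed beyond sampling noise by a chi-square statistic. Counting error is not the spread between samples, and amplified reads are not independent molecules.

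The 8 members, the lists of related miRNAs and the markers were chosen with earlier results of these data known. Named miRNAs are the members, the other strands of their hairpins, the let-7 strands of their clusters, the miR-10 guides, any tested miRNA with a member's seed, and the 3 nearest in pattern. miRNA sequences are from RefSeq (GRCh38.p14), the CD274 3'UTR from GENCODE transcripts (GRCh37). Alternatives were DESeq2 1.42.0 and its size factors, library totals, no filter, a minimum mean of 10 CPM, separate loci, only the groups compared, a replicate block, robust empirical Bayes, a pseudocount of 1 for ratios, and leaving out each library.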

Additional observations from a re-analysis of the deposited data

How the results depend on the processing

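Of 432 alternatives of the members' fold changes, 399 kept direction and side of the threshold, 11 lost a call, 21 gained one and 1 reversed. The reversal was miR-100-5p against the input, -0.38 with TMM and 0.19 with library totals, which left 0 members lower in that comparison. The members that fell were 2 in place of 1 between the baits with a mean of at least 10 CPM and with separate loci, where miR-99b-3p passed, and with single libraries left out they were 1 to 2. In the MS2 control against the input, 2 in place of 1 fell without a filter, and 1 to 2 with a library left out. Over all alternatives, 2 to 4 members in place of 3 rose between the baits. Against the input, 5 to 7 in place of 6 rose with the PD-L1 3'UTR, and 5 to 6 in place of 5 in the MS2 control. The background moved too. With library totals, 7 and 6 members rose in these comparisons, and of all 408 miRNAs 192 in place of 139 and 199 in place of 134 did. Without a filter, 201 in place of 132 of all miRNAs fell from the input to the PD-L1 3'UTR. let-7e-3p, at few counts and not called in any of the 3 comparisons, reversed to 0.14 in the MS2 control and 0.20 with the PD-L1 3'UTR against the input by library totals, to -0.04 between the baits at a mean of 10 CPM, and ranged from -0.35 to 1.01 there with a library left out. Whether replicate numbers pair the samples was not settled, since deviations from a mean of 3 libraries cannot decide it. Same-numbered libraries of different groups deviated together with correlations of -0.205 to 0.121. Between the trapped groups these were 0.121, 0.069 and 0.099, against -0.097 to 0.006 for different numbers. Between the input and the trapped groups they were -0.205 to 0.005, against -0.119 to 0.201. With a replicate block 2 members in place of 1 fell in the MS2 control against the input, miR-125b-2-3p being added, and no other member's call changed. Of the 13 ratios 12 differed between groups, 6 to 12 with a library left out (6 when replicate 3 of the PD-L1 3'UTR group was dropped, 7 when its replicate 2 or replicate 2 or 3 of the input was), and 0 with the permutation kept within replicate numbers, where the smallest p is 0.0278. The ratio of miR-100-5p to miR-125b-5p, alike between the baits (0.01 on the log2 scale), was -0.10 to 0.16 with a library left out, and that of miR-100-5p to miR-99a-5p 0.00 to 0.30. The cause of these changes was not tested. Depth limits miR-125b-2-3p most, with 32 counts in its lowest library.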
